A study of Mus musculus with 15 samples.

Results

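The 38 genes described here code for the machinery of glycolysis and for the response to HIF-1, the hypoxia-inducible transcription factor. They comprise glucose transporters, hexokinases, the other enzymes from glucose to lactate, monocarboxylate transporters, the HIF subunits with their oxygen sensors, and HIF-1 target genes outside glycolysis. Members were taken by gene name from the array annotation, and where several probes of a gene were tested the brightest on average stands for it. All 38 were among the 36870 gene names on the array, and 37 were among the 19499 genes tested. Ldhb, the heart-type lactate dehydrogenase subunit, had 2 probes, neither of which passed the filter of 2 arrays well above background within a group, and it was not tested.

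The study profiled glucocorticoids intended for severe asthma on 15 Agilent arrays of RAW264.7 cells, a mouse macrophage-like line, with 3 arrays in each of 5 groups by the labels, although the design text speaks of duplicates. Cells of the steroid groups received dexamethasone (DEX), fluticasone furoate (FF), VSG158 or VSG159, each at 100 nM, for 1 h before LPS at 1 ug per ml for 16 h. DEX and FF are synthetic glucocorticoids, and the VSG compounds are known here only by their codes. The vehicle group is labelled EtOH and DMSO. LPS (lipopolysaccharide), which activates macrophages, stands in the protocol attached to all 15 samples but not in the vehicle labels, so comparisons with vehicle assume that those cells received it too. The labels do not say which solvent carried which compound, and a solvent difference cannot be told apart from a steroid effect. They also do not say whether the 3 arrays of a group came from separate cultures, so p-values measure a spread that may be technical.

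Slide 1 held the 3 vehicle and the 3 VSG158 arrays with VSG159 replicates 1 and 2, and slide 2 held VSG159 replicate 3 with the 3 FF and the 3 DEX arrays. DEX and FF thus share no slide with vehicle, and each group sat at its own positions on a slide. All 11 macrophage markers looked up, among them Adgre1, Cd68, Csf1r and Lyz2, were well above background on all 15 arrays. Of the markers of other cell types, Cd3e, Cd4, Dcn, Elane and S100a8 also were, and the other 19 were not. Between 39.6% and 50.4% of the noncontrol spots on an array were well above background and none was saturated.

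In macrophages, LPS turns on glycolysis and stabilizes HIF-1, a dimer of HIF-1 alpha (Hif1a) with a partner subunit. HIF-1 binds a short element in its target genes, and prolyl hydroxylases such as Egln1 and Egln3 mark HIF-1 alpha for destruction when oxygen is present. Its targets include the glucose transporter Slc2a1, many glycolytic enzymes, the growth factor gene Vegfa and the hydroxylase Egln3 itself, which gives a feedback loop.

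The core of that element reads ACGTG or GCGTG, and both were searched on both strands in the 250 bases before each RefSeq gene start (build GRCm38.p6), with overlapping matches counted. Windows were given for 35 of the 38 members, and 32 of these members (91.4%) had a match in at least 1 window, compared with 56.2% of the tested genes that have a window. Among members called lower in all 4 steroid groups 13 of 14 had a match, and among the other members 19 of 21 did. The member windows were richer in G and C (median 61.6%) than those of tested genes (58.4%), and what part of the difference in matches this makes was not tested. These windows are printed here, each from its 5′ end to the base before the gene start: a pair of the largest falls (P4ha2 and Adm), the window with the most matches among genes lower in all groups (Bnip3), the main glucose transporter (Slc2a1), and Eno2, which fell strongly and has no match. Capitals mark the matches, and in the Bnip3 window the run CACGTG matches on both strands and counts as 2. The windows lie at chr11:54100674-54100923 on the plus strand for P4ha2, with 3 matches, chr7:110627407-110627656 on the plus strand for Adm, with 2, chr7:138909507-138909756 on the minus strand for Bnip3, with 5, chr4:119108495-119108744 on the plus strand for Slc2a1, with 2, and chr6:124769674-124769923 on the minus strand for Eno2, with 0. A match is a run of letters and not a tested binding site.
P4ha2: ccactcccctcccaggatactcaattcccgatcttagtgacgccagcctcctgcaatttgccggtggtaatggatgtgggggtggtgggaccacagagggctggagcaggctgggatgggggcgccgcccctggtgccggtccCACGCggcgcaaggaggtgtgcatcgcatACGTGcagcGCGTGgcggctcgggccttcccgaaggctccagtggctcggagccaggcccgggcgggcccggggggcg
Adm: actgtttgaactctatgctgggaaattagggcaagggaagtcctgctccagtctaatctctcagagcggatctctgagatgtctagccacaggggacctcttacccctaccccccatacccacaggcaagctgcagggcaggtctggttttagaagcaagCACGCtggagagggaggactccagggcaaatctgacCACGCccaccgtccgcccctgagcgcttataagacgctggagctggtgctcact
Bnip3: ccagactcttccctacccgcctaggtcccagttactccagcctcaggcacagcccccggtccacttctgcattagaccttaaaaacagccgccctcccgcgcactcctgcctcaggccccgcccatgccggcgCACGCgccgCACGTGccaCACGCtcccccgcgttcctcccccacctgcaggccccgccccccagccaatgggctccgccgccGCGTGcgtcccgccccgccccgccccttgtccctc
Slc2a1: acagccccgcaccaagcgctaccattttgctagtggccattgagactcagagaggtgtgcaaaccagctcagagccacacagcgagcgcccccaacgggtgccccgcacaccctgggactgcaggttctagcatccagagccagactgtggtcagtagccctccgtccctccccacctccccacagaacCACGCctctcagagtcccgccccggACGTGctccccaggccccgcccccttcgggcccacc
Eno2: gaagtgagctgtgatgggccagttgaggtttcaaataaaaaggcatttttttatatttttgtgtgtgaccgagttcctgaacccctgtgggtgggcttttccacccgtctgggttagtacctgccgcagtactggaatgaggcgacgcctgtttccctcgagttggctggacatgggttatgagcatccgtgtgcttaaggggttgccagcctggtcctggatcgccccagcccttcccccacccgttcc

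Signals are given below as multiples of the 75th percentile signal of the same array, a scale on which 1 probe can be compared between arrays but not 1 probe with another. Changes are log2 differences from a limma fit over all 15 arrays, written as steroid over vehicle unless said otherwise, with n = 3 arrays per group. A member is called when its Benjamini-Hochberg adjusted p over all 19499 genes is under 0.05. In a bulk sample, fewer cells of a kind and less RNA per cell cannot be told apart.

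With DEX, 18 of the 37 tested members fell (23.1% of all genes did), 6 rose (23.2%) and 13 were not called. With FF, 21 fell (21.4% of all genes), 4 rose (20.9%) and 12 were not called. VSG158 lowered 22 members (24.5% of all genes), raised 4 (19.7%) and left 11 without a call. For VSG159 the counts were 23 lower (25% of all genes), 4 higher (19.1%) and 10 not called. The arrays of a steroid group and of vehicle did not overlap, with the steroid lower, for 23 members under DEX (29.7% of all genes), 25 under FF (30.5%), 25 under VSG158 (29.9%) and 24 under VSG159 (29%). The median change of the members was -0.30 under DEX, -0.41 under FF, -0.45 under VSG158 and -0.60 under VSG159, beside medians over all genes of 0.03, -0.05, -0.06 and -0.06. These 4 comparisons share the vehicle arrays. In all, 15 members were lower in every steroid group, namely Adm, Aldoa, Ankrd37, Bnip3, Egln1, Eno2, Ero1l, Hk3, Ndrg1, P4ha1, P4ha2, Pfkfb4, Pfkp, Slc2a1 and Vegfa. They are 15 of 37 members, and 15.8% of all genes were lower in every group. With slide as a fixed or random block Slc2a1, Hk3 and Egln1 were not among them, and the count was 14 with the fixed block, which added Pfkfb3 and Tpi1, and 12 with the random one. The counts with a slide block are not set beside a share of all genes. Aldoc, Epas1 and Slc2a6 were higher in all 4 (15.6% of all genes), and Eno1, Gpi1, Hk1, Ldha, Pdk1 and Pfkm were called in none (40.7%). An F test over the 5 groups called 28 of the 37 members (45.1% of all genes).

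**Figure D1:**
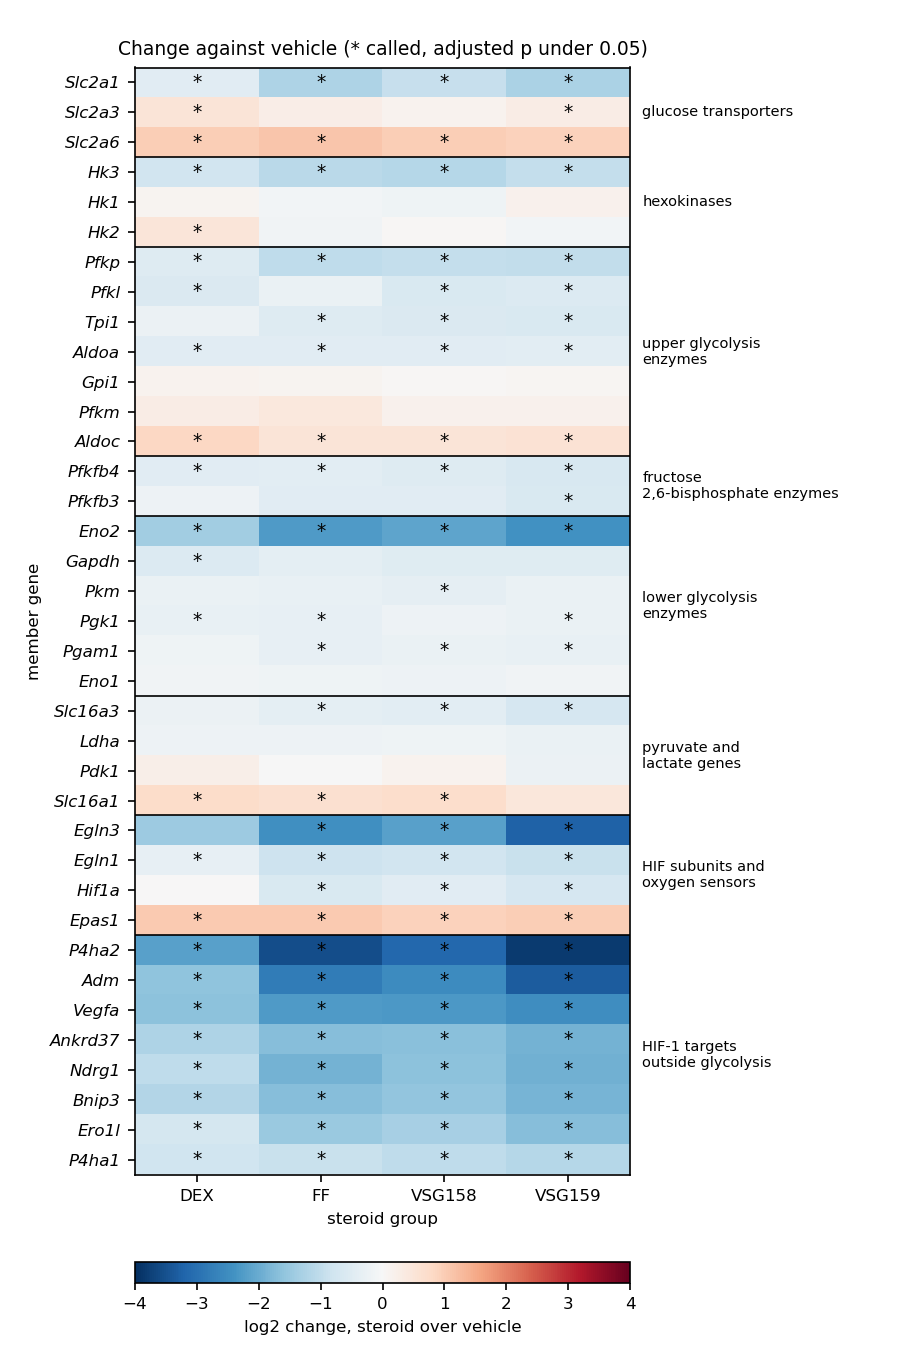
Log2 change of each of the 37 tested members in DEX, FF, VSG158 and VSG159 cells over vehicle, by role, with blue for lower, red for higher and an asterisk for a call (limma, adjusted p under 0.05, 3 arrays per group). The 8 HIF-1 targets outside glycolysis are blue and called in all 4 columns, while most glycolysis enzymes are pale and Eno2 is the darkest of them.

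The HIF-1 targets outside glycolysis stood lowest of all roles by their median change. All 8 fell in each steroid group, with medians of -1.20 in DEX, -1.79 in FF, -1.66 in VSG158 and -1.90 in VSG159 cells. P4ha2, a subunit of the collagen prolyl 4-hydroxylase, had signals of 0.733, 0.704 and 0.845 in DEX cells, 0.283, 0.353 and 0.264 in FF cells, 0.319, 0.462 and 0.4 in VSG158 cells and 0.282, 0.177 and 0.29 in VSG159 cells, against 3.62, 3.44 and 3.3 in vehicle cells. Every steroid array lay below every vehicle array, and the DEX arrays lay between vehicle and the other steroids. P4ha2 changed by -2.19 under DEX (adjusted p = 3.52e-06), -3.53 under FF (adjusted p = 5.22e-08), -3.15 under VSG158 (adjusted p = 1.37e-07) and -3.82 under VSG159 (adjusted p = 2.93e-08), each with an SE of 0.20. Its promoter, printed above, holds 3 matches of the HIF-1 core element, and their part in the fall was not tested. The paralogue P4ha1 had signals of 1.9, 1.82 and 2.24 in DEX cells, 2.05, 1.72 and 1.76 in FF cells, 1.66, 1.88 and 1.57 in VSG158 cells and 1.42, 1.36 and 1.89 in VSG159 cells, against 3.36, 3.6 and 3.27 in vehicle cells. Here too no steroid array reached the vehicle range, but DEX and FF arrays overlapped, and the changes ran from -1.15 in VSG159 to -0.79 in DEX cells (SE 0.14).

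Adm codes for adrenomedullin, a vasodilator peptide. Its signals were 1.18, 1.25 and 1.32 in DEX cells, 0.52, 0.631 and 0.495 in FF cells, 0.608, 0.795 and 0.636 in VSG158 cells and 0.429, 0.283 and 0.452 in VSG159 cells, against 3.54, 4.4 and 3.59 in vehicle cells. The steroid arrays lay below all vehicle arrays, and all DEX arrays lay above the other steroid arrays. Adm changed by -1.62 under DEX (adjusted p = 1.93e-05), -2.81 under FF (adjusted p = 1.58e-07), -2.50 under VSG158 (adjusted p = 4.35e-07) and -3.33 under VSG159 (adjusted p = 4.26e-08), with an SE of 0.18. Vegfa, the vascular endothelial growth factor gene, had signals of 5.35, 5.17 and 4.88 in DEX cells, 3.44, 3.26 and 3.19 in FF cells, 3.54, 3.53 and 2.82 in VSG158 cells and 2.95, 2.43 and 3.32 in VSG159 cells, against 14.8, 16.1 and 17 in vehicle cells. DEX arrays again stood between vehicle and the other steroids. Vegfa changed by -1.64 under DEX (adjusted p = 9.22e-07), -2.28 under FF (adjusted p = 4.28e-08), -2.28 under VSG158 (adjusted p = 4.66e-08) and -2.47 under VSG159 (adjusted p = 2.37e-08), with an SE of 0.12. Its other 3 tested probes were called lower in every steroid group as well.

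Bnip3, a mitochondrial protein that promotes mitophagy, had signals of 38.2, 40 and 37.1 in DEX cells, 24.2, 28.4 and 27.3 in FF cells, 29.8, 30.2 and 27 in VSG158 cells and 24.1, 19.7 and 28 in VSG159 cells, against 90.1, 85.7 and 82.6 in vehicle cells. No array of a steroid group came near the vehicle range, and Bnip3 changed by -1.16 under DEX, -1.70 under FF, -1.57 under VSG158 and -1.86 under VSG159 (SE 0.12, adjusted p of 9.57e-06 or less). Ankrd37, an ankyrin repeat protein, had signals of 2.69, 2.47 and 2.35 in DEX cells, 1.81, 1.86 and 1.82 in FF cells, 2.12, 2.23 and 1.36 in VSG158 cells and 1.44, 1.31 and 2.17 in VSG159 cells, against 5.82, 6.18 and 5.82 in vehicle cells. It changed by -1.25 under DEX, -1.70 under FF, -1.68 under VSG158 and -1.89 under VSG159 (SE 0.20, adjusted p of 0.000316 or less). Within VSG158 and VSG159 its arrays spread more than within DEX and FF, with VSG158 replicate 3 and VSG159 replicates 1 and 2 lowest. These are the arrays with the most spots marked as outliers by the scanner software, and the part of these spots in the spread was not tested.

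Ero1l, the endoplasmic reticulum oxidase that RefSeq now names Ero1a, had signals of 35.2, 35.9 and 37.4 in DEX cells, 18.5, 22.1 and 21.6 in FF cells, 22.1, 25.5 and 21.6 in VSG158 cells and 17.5, 15.2 and 21.8 in VSG159 cells, against 54.1, 60.2 and 60.9 in vehicle cells. The DEX arrays of this gene, too, lay between those of vehicle and of the other steroids. Ero1l changed by -0.69 under DEX, -1.50 under FF, -1.34 under VSG158 and -1.70 under VSG159 (SE 0.13, adjusted p of 0.000987 or less). Ndrg1, a stress-responsive gene, had signals of 73.7, 73.6 and 77 in DEX cells, 37, 41.7 and 44 in FF cells, 45.7, 49.3 and 49.8 in VSG158 cells and 42.7, 35.1 and 42.9 in VSG159 cells, against 134, 160 and 161 in vehicle cells. It changed by -1.01 under DEX, -1.89 under FF, -1.65 under VSG158 and -1.91 under VSG159 (SE 0.11, adjusted p of 1.32e-05 or less).

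**Figure D2:**
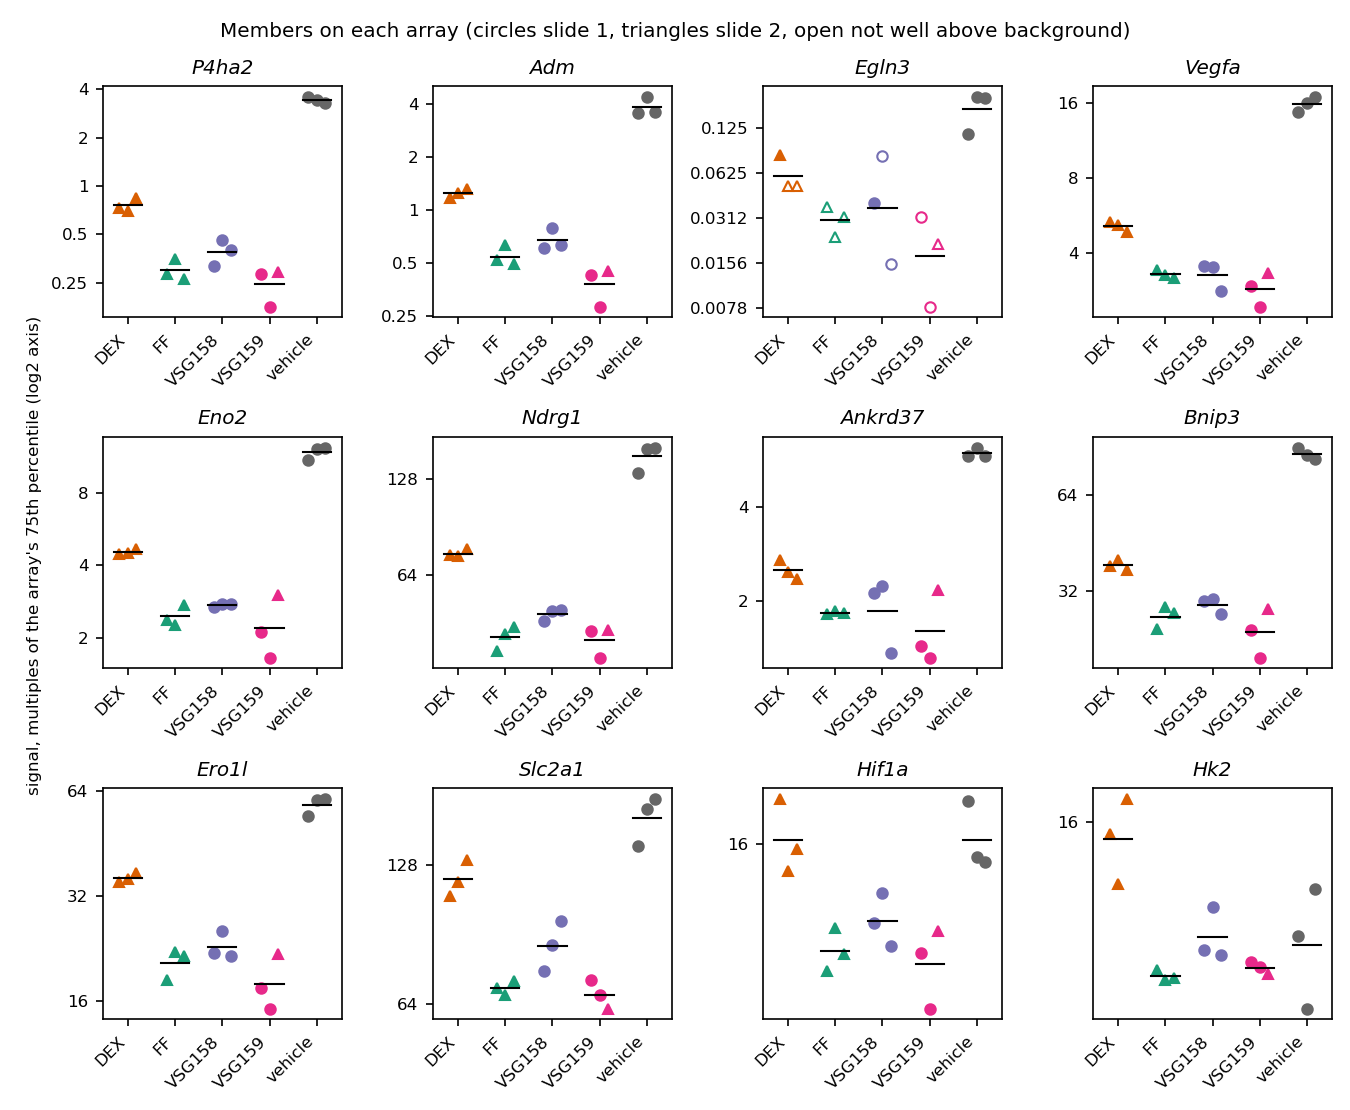
Signal of 12 members on each of the 15 arrays (log2 axis, multiples of the array's 75th percentile signal) for DEX, FF, VSG158, VSG159 and vehicle, with circles for slide 1, triangles for slide 2, open symbols for spots not well above background and bars for the group mean on the log2 scale. For P4ha2, Adm, Vegfa, Eno2, Ndrg1 and Ero1l the DEX arrays sit between the vehicle arrays and those of the other 3 steroids, and for Hif1a the DEX and vehicle arrays overlap.

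Among the HIF subunits and oxygen sensors, Hif1a itself had signals of 19, 14.4 and 15.7 in DEX cells, 9.91, 11.7 and 10.6 in FF cells, 11.9, 13.3 and 10.9 in VSG158 cells and 10.6, 8.61 and 11.5 in VSG159 cells, against 18.8, 15.2 and 15 in vehicle cells. DEX and vehicle arrays overlapped, with an interval of the DEX change of -0.32 to 0.32 (adjusted p = 0.994), and arrays of the other groups lay below all vehicle arrays. Hif1a changed by -0.60 with FF (adjusted p = 0.00517), -0.44 with VSG158 (adjusted p = 0.0282) and -0.67 with VSG159 (adjusted p = 0.00248), with an SE of 0.15. The VSG158 call was lost under 9 of 27 alternatives, slide 1 alone (-0.44, adjusted p = 0.0517) among them. The FF call was lost under 2 of 26 alternatives and the VSG159 call under 2 of 27, with arrays scaled to their median among them. With slide and position together, the Hif1a changes were -0.18 with FF, -0.16 with VSG158 and -0.26 with VSG159. None of these was called (limma, adjusted p = 0.894, 0.6 and 0.677). Epas1, which codes for the HIF-2 alpha subunit, had signals of 0.151, 0.174 and 0.147 in DEX cells, 0.15, 0.181 and 0.146 in FF cells, 0.16, 0.151 and 0.122 in VSG158 cells and 0.166, 0.135 and 0.148 in VSG159 cells, against 0.0751, 0.0744 and 0.0791 in vehicle cells. All steroid arrays lay above all vehicle arrays and overlapped with each other. Epas1 rose by 1.04 under DEX, 1.05 under FF, 0.91 under VSG158 and 0.97 under VSG159 (SE 0.13, adjusted p of 9.53e-05 or less). It was dim, though well above background on every array, and the size of its rise depended on the processing. The lowest rises over the alternatives, all called, were 0.58 under DEX, 0.46 under FF, 0.50 under VSG158 and 0.46 under VSG159.

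The oxygen sensor Egln1 changed by -0.33 under DEX (adjusted p = 0.0197), -0.84 under FF, -0.77 under VSG158 and -0.90 under VSG159 (SE 0.10, adjusted p of 6.33e-05 or less for these 3). The DEX call of Egln1 was lost when slide was a fixed block (adjusted p = 0.169) or a random one, and without vehicle replicate 2, vehicle replicate 3 or DEX replicate 1 (-0.28, adjusted p = 0.0721). Egln3, the sensor that HIF-1 induces, was dim: its signals were 0.0825, 0.0513 and 0.0509 in DEX cells, 0.0373, 0.0234 and 0.0319 in FF cells, 0.0392, 0.0808 and 0.0153 in VSG158 cells and 0.0317, 0.00801 and 0.0209 in VSG159 cells, against 0.114, 0.201 and 0.196 in vehicle cells. It passed the filter through vehicle alone, the group where it is high, so its lower calls are not independent of the filter. The calls under FF, VSG158 and VSG159 were also made with no filter. It was well above background on all 3 vehicle arrays, on 1 DEX and 1 VSG158 array and on no FF or VSG159 array. Egln3 was at least 3.96-fold lower in FF cells (adjusted p = 0.00495) and at least 4.64-fold lower in VSG159 cells (adjusted p = 0.000709) than in vehicle cells. These bounds set the mean of the vehicle arrays against, on each dim array, the higher of the probe's signal and the lowest signal well above background. Under VSG158 it was called lower (adjusted p = 0.00964), but not on slide 1 alone (adjusted p = 0.0509), and under DEX it was not called (adjusted p = 0.0597). The FF call of Egln3 did not hold with slide as a fixed block (adjusted p = 0.0629).

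Of the 3 glucose transporters, Slc2a1, the inducible GLUT1, had signals of 110, 118 and 131 in DEX cells, 69.2, 67 and 71.6 in FF cells, 75.5, 85.9 and 96.6 in VSG158 cells and 72.2, 66.8 and 62.4 in VSG159 cells, against 140, 169 and 178 in vehicle cells. The groups did not overlap with vehicle, and the lowest DEX array lay above the highest array of the other steroids. Slc2a1 changed by -0.44 under DEX (adjusted p = 0.00947), -1.22 under FF (adjusted p = 4.94e-06), -0.92 under VSG158 (adjusted p = 5.47e-05) and -1.27 under VSG159 (adjusted p = 3.68e-06), with an SE of 0.12. With slide as a fixed block the Slc2a1 change with DEX was -0.29 (adjusted p = 0.297). Slc2a6, a lysosomal glucose transporter of macrophages, had signals of 31.8, 31.8 and 29.6 in DEX cells, 32.6, 33.9 and 35 in FF cells, 32.1, 32.1 and 30.2 in VSG158 cells and 28.4, 30.5 and 31.6 in VSG159 cells, against 16.2, 15.5 and 15.6 in vehicle cells. It went the other way, about level in the 4 steroid groups and above vehicle on every array, and rose by 0.98 under DEX, 1.10 under FF, 1.00 under VSG158 and 0.94 under VSG159 (SE 0.07, adjusted p of 7.44e-07 or less). Slc2a3, the neuronal GLUT3, rose by 0.52 with DEX (adjusted p = 0.00153) and 0.31 with VSG159 (adjusted p = 0.0282), and its changes of 0.25 with FF and 0.14 with VSG158 were not called.

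The hexokinases trap glucose in the cell as glucose phosphate, and the 3 members did not move together. Hk3, the myeloid form, had signals of 47.9, 66 and 56.7 in DEX cells, 38.1, 48.3 and 51.4 in FF cells, 41.8, 44.2 and 43.7 in VSG158 cells and 61, 56.9 and 35.9 in VSG159 cells, against at least 87.2 on every vehicle array. It changed by -0.76 under DEX (adjusted p = 0.00715), -1.07 under FF, -1.15 under VSG158 and -0.94 under VSG159 (SE 0.19), and its second tested probe by -1.81 to -1.51. VSG159 replicate 3, the VSG159 array on slide 2, was the lowest of all 15 for Hk3, and the DEX call was lost when slide was a fixed block (-0.05, adjusted p = 0.89) or a random one. With the fixed block the FF change of Hk3 was -0.36 (adjusted p = 0.288). Hk2, the inducible form, had signals of 15.4, 13.1 and 17.2 in DEX cells, 9.92, 9.61 and 9.67 in FF cells, 10.6, 12.1 and 10.4 in VSG158 cells and 10.2, 10 and 9.78 in VSG159 cells, against 11.1, 8.76 and 12.9 in vehicle cells. All DEX arrays lay above all others, and Hk2 rose by 0.49 with DEX (SE 0.14, adjusted p = 0.0115), a call that ended with slide as a block and without DEX replicate 3. Its changes in the other groups were between -0.15 and 0.03. Hk1, the form found in most tissues, differed from vehicle by -0.17 to 0.16 and was not called.

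Of 16 enzymes of the pathway itself, hexokinases included, 7 fell and 2 rose under DEX (23.1% and 23.2% of all genes), 7 fell and 1 rose under FF (21.4% and 20.9%), 8 fell and 1 rose under VSG158 (24.5% and 19.7%), and 8 fell and 1 rose under VSG159 (25% and 19.1%). The medians were -0.26, -0.31, -0.33 and -0.29 in these groups. Called changes of at least 2-fold were those of Eno2 in every group, Hk3 under FF and VSG158, and Pfkp under FF. Eno2 is the neuron-type enolase. Its signals were 4.44, 4.51 and 4.66 in DEX cells, 2.38, 2.27 and 2.73 in FF cells, 2.68, 2.76 and 2.77 in VSG158 cells and 2.1, 1.65 and 3.01 in VSG159 cells, against 11, 12.2 and 12.4 in vehicle cells. Groups were apart from vehicle without overlap, and DEX arrays were again in between. Eno2 changed by -1.38 under DEX (adjusted p = 4.28e-05), -2.27 under FF (adjusted p = 5.46e-07), -2.11 under VSG158 (adjusted p = 1.04e-06) and -2.44 under VSG159 (adjusted p = 3.24e-07), with an SE of 0.17, while the common form Eno1 differed by -0.20 to -0.13 and was not called.

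The phosphofructokinase step commits sugar to glycolysis. Its platelet form Pfkp changed by -0.51 under DEX (adjusted p = 0.000922), -1.03 under FF, -0.96 under VSG158 and -0.99 under VSG159 (SE 0.10, adjusted p of 5.99e-06 or less). The liver form Pfkl changed by -0.57 with DEX, -0.60 with VSG158 and -0.56 with VSG159 (SE 0.17), with -0.25 in FF cells (adjusted p = 0.261). Each of the Pfkl calls was lost with arrays scaled to their median, with the mean of its 2 tested probes and without vehicle replicate 2. Over the alternatives the Pfkl change ranged from -1.01 to -0.02 with DEX, -0.76 to -0.23 with VSG158 and -0.72 to -0.23 with VSG159. The muscle form Pfkm was not called in any group. Pfkfb3 makes the activator of that step, fructose 2,6-bisphosphate, and had signals of 70.4, 62.6 and 62 in DEX cells, 53.3, 56.3 and 55.1 in FF cells, 60.2, 62.6 and 43.8 in VSG158 cells and 41.9, 40.4 and 67.8 in VSG159 cells, against 70.8, 77.4 and 75.3 in vehicle cells. Only the VSG159 change passed the test, with a change of -0.61 (SE 0.19, adjusted p = 0.0176), and it did so with 1 of 3 arrays close to vehicle. The other tested Pfkfb3 probe was called lower in all 4 groups, at -0.98 to -0.67. Its relative Pfkfb4 changed by -0.45 under DEX, -0.41 under FF, -0.50 under VSG158 and -0.66 under VSG159 (SE 0.12).

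Among the aldolases, Aldoa changed by -0.45 to -0.43 in the 4 groups (SE 0.10), and Aldoc, the brain form, rose by 0.82 under DEX (adjusted p = 0.000764), 0.50 under FF, 0.50 under VSG158 and 0.59 under VSG159 (SE 0.15). The rise of Aldoc rests on its brightest probe: the other 2 tested probes had changes of -0.23 to 0.31. Triose phosphate isomerase, Tpi1, changed by -0.51 with FF, -0.59 with VSG158 and -0.60 with VSG159 (SE 0.10), and its change of -0.24 with DEX was not called (adjusted p = 0.0642). Gpi1, the isomerase at the start of the pathway, was not called, with changes of 0.05 to 0.14. Pgam1, a mutase of the triose part, changed by -0.32 with FF, -0.28 with VSG158 and -0.30 with VSG159 (SE 0.07), and its change with DEX was -0.18 (adjusted p = 0.0526). Pgk1, an ATP-forming kinase, changed by -0.30 with DEX, -0.34 with FF and -0.28 with VSG159 (SE 0.10), with -0.20 in VSG158 cells, where 1 of 3 values was missing. The Pgk1 calls were lost under 8 of 26 alternatives with DEX, 7 of 26 with FF and 17 of 27 with VSG159. The F test over the groups did not call Pgk1 (adjusted p = 0.0844). The pyruvate kinase gene Pkm was called with VSG158 alone, with a change of -0.37 (SE 0.13, adjusted p = 0.0349), and 1 of its 3 vehicle values was missing.

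Gapdh, often taken as a reference gene, had signals of 203, 356 and 369 in DEX cells, 370, 327 and 309 in FF cells, 323, 340 and 275 in VSG158 cells and 307, 286 and 351 in VSG159 cells, against 398, 470 and 441 in vehicle cells. All steroid arrays lay below all vehicle arrays, and DEX replicate 1 lay far below the other DEX arrays. The DEX change of -0.54 was called (SE 0.20, adjusted p = 0.0412) and the changes of -0.38 with FF, -0.48 with VSG158 and -0.47 with VSG159 were not (adjusted p = 0.153, 0.0679 and 0.0732). The DEX call was lost under 17 of 26 alternatives, with slide as a fixed or random block among them, and without DEX replicate 1 the change was -0.26 (adjusted p = 0.131). The other 5 tested Gapdh probes had changes of -0.95 to -0.15. Gapdh, like Pgk1, Ldha and Eno1, has near-identical pseudogene copies in the mouse genome, so its probes may read more than 1 locus.

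**Figure D3:**
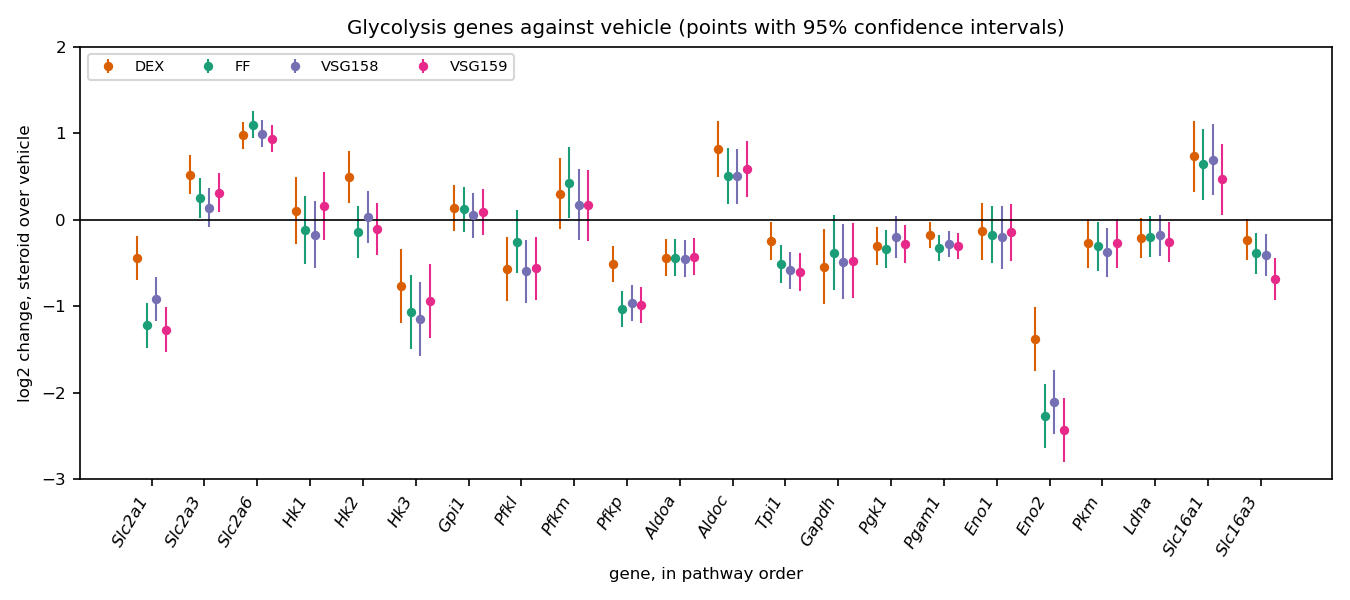
Log2 change over vehicle, with 95% confidence intervals, of glucose transporters, glycolysis enzymes and lactate genes in pathway order, for DEX, FF, VSG158 and VSG159. Slc2a1, Hk3, Pfkp and Eno2 stand out below 0 and Slc2a6, Aldoc and Slc16a1 above it, while Gpi1, Hk1, Eno1 and Ldha stay near 0.

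At the lactate end, Ldha, the lactate dehydrogenase subunit induced by HIF-1, had signals of 199, 245 and 226 in DEX cells, 225, 230 and 221 in FF cells, 240, 241 and 203 in VSG158 cells and 208, 204 and 235 in VSG159 cells, against 233, 269 and 274 in vehicle cells. DEX, VSG158 and VSG159 arrays overlapped with vehicle and FF arrays did not. No Ldha change was called, with values between -0.26 and -0.18, and the second tested probe was called lower with DEX (-0.65, adjusted p over all tested probes = 0.00643) and with VSG158 (-0.52, adjusted p = 0.0227). The lactate exporter Slc16a3 changed by -0.39 with FF, -0.41 with VSG158 and -0.69 with VSG159 (SE 0.11), with -0.23 in DEX cells (adjusted p = 0.106). Slc16a1, the broadly expressed monocarboxylate transporter, moved the other way, with rises of 0.74 with DEX, 0.64 with FF and 0.69 with VSG158 (SE 0.19) and 0.47 in VSG159 cells (adjusted p = 0.0632). With slide as a fixed block the changes of Slc16a1 were 0.31 with DEX (adjusted p = 0.453) and 0.21 with FF (adjusted p = 0.622), and neither call held with the random block or the median scaling. Pdk1, the kinase that keeps pyruvate out of the mitochondrion, differed by -0.22 to 0.22 on its brightest probe and was not called, but another of its probes was called lower in all 4 groups, at -0.79 to -0.68.

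The calls for the 8 HIF-1 targets outside glycolysis, Eno2, Slc2a6 and Epas1 held in all 4 groups under every other scaling, filter, probe choice, slide block or left-out array tried. Of all members called, these and others make 12 of 24 calls under DEX, 14 of 25 under FF, 15 of 26 under VSG158 and 16 of 27 under VSG159 that held throughout, and most of the others were lost when arrays were scaled to their median. The exception was a fit with slide and array position together, 2 terms tied to the groups. In it the calls of these 11 genes passed under VSG158 and VSG159, and under FF they did apart from Epas1 (adjusted p = 0.0907), Ankrd37 (adjusted p = 0.124) and P4ha1 (adjusted p = 0.128). No DEX call passed (0 of 37 members, 9 at an unadjusted p under 0.05), with a difference of -2.52 for P4ha2 (adjusted p = 0.312) and of -2.47 for Eno2 (adjusted p = 0.0918). On slide 1 alone, which VSG158 and vehicle share, 21 members were lower and 4 higher with VSG158, and 24 were lower and 3 higher with VSG159. These counts tell how the calls held on 1 slide and are not set beside a share of all genes.

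Other genes of the same pathways were taken from lists. Of 47 tested further HIF-1 targets and regulators, 24 fell under DEX, 28 under FF, 27 under VSG158 and 29 under VSG159, while 6 rose in each group. Of all genes, 23.1%, 21.4%, 24.5% and 25% fell and 23.2%, 20.9%, 19.7% and 19.1% rose in these groups. Their medians were -0.49 under DEX, -0.62 under FF, -0.53 under VSG158 and -0.73 under VSG159. Pgf, a growth factor gene related to Vegfa, changed by -4.02 under DEX, -3.84 under FF, -3.94 under VSG158 and -3.86 under VSG159 (SE 0.32), and it was above background on 1 DEX, 3 FF, 2 VSG158 and 2 VSG159 arrays. Nos2, the inducible nitric oxide synthase, changed by -1.45 under DEX, -2.55 under FF, -2.36 under VSG158 and -2.69 under VSG159 (SE 0.12). Angptl4, an inhibitor of lipoprotein lipase, rose by 3.19 under DEX, 3.03 under FF, 3.14 under VSG158 and 3.18 under VSG159 (SE 0.25). Hif3a, a HIF subunit whose short forms inhibit HIF-1, was not above background on any vehicle array and was at least 1.92-fold higher under DEX, 2.83-fold under FF, 2.16-fold under VSG158 and 2.78-fold under VSG159, all called. Hif3a passed the filter through steroid groups alone, where it is high, so these calls are not independent of the filter.

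Neighbouring routes of sugar metabolism showed other counts. Of 9 pentose phosphate genes, 6 rose under DEX (23.2% of all genes), 6 under FF (20.9%), 5 under VSG158 (19.7%) and 5 under VSG159 (19.1%), with medians of 0.68, 0.66, 0.54 and 0.57. Shpk, the sedoheptulose kinase, rose by 1.60 under DEX, 1.53 under FF, 1.59 under VSG158 and 1.44 under VSG159 (SE 0.09), and H6pd, the dehydrogenase of the endoplasmic reticulum, by 1.24, 1.61, 1.47 and 1.43 in those groups (SE 0.14). G6pdx was lower with VSG158, a gene named here after its value was seen. Of 24 genes of the TCA cycle, which oxidizes acetyl groups in the mitochondrion, 13 rose under DEX, 15 under FF, 12 under VSG158 and 12 under VSG159, beside the same shares of all genes, with medians of 0.33, 0.39, 0.33 and 0.30. Idh3a, an isocitrate dehydrogenase subunit, rose by 1.93 under DEX, 1.71 under FF, 1.75 under VSG158 and 2.04 under VSG159 (SE 0.16). Acod1, which diverts aconitate to itaconate in activated macrophages, changed by -0.51 under DEX, -0.67 under FF, -0.71 under VSG158 and -0.53 under VSG159, and was also named after its values were seen, as was Cs, lower under VSG159 (-0.32).

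Of 27 further genes of glycolysis, pyruvate and glucose handling, 14 rose under DEX (23.2% of all genes), 16 under FF (20.9%), 12 under VSG158 (19.7%) and 12 under VSG159 (19.1%). In these groups 5, 3, 5 and 3 of the 27 fell, beside 23.1%, 21.4%, 24.5% and 25% of all genes. Those that fell, named after their values were seen, were Slc2a4, Pdp1 and Pdp2 in every group, with Ldhc and Slc2a9 in DEX and VSG158 cells. Fbp1, which runs the phosphofructokinase step in the direction of glucose synthesis, was not above background on any vehicle array and was at least 2.02-fold higher under DEX, 2.84-fold under FF, 2.82-fold under VSG158 and 2.93-fold under VSG159, all called. Fbp1 passed the filter through steroid groups alone, where it is high, so its higher calls are not independent of the filter. Adpgk, a glucokinase that uses ADP, rose by 1.68 under DEX, 1.54 under FF, 1.44 under VSG158 and 1.18 under VSG159 (SE 0.13). Slc2a4, the insulin-responsive glucose transporter, changed by -1.25 under DEX, -1.35 under FF, -1.80 under VSG158 and -1.45 under VSG159 (SE 0.28).

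**Figure D4:**
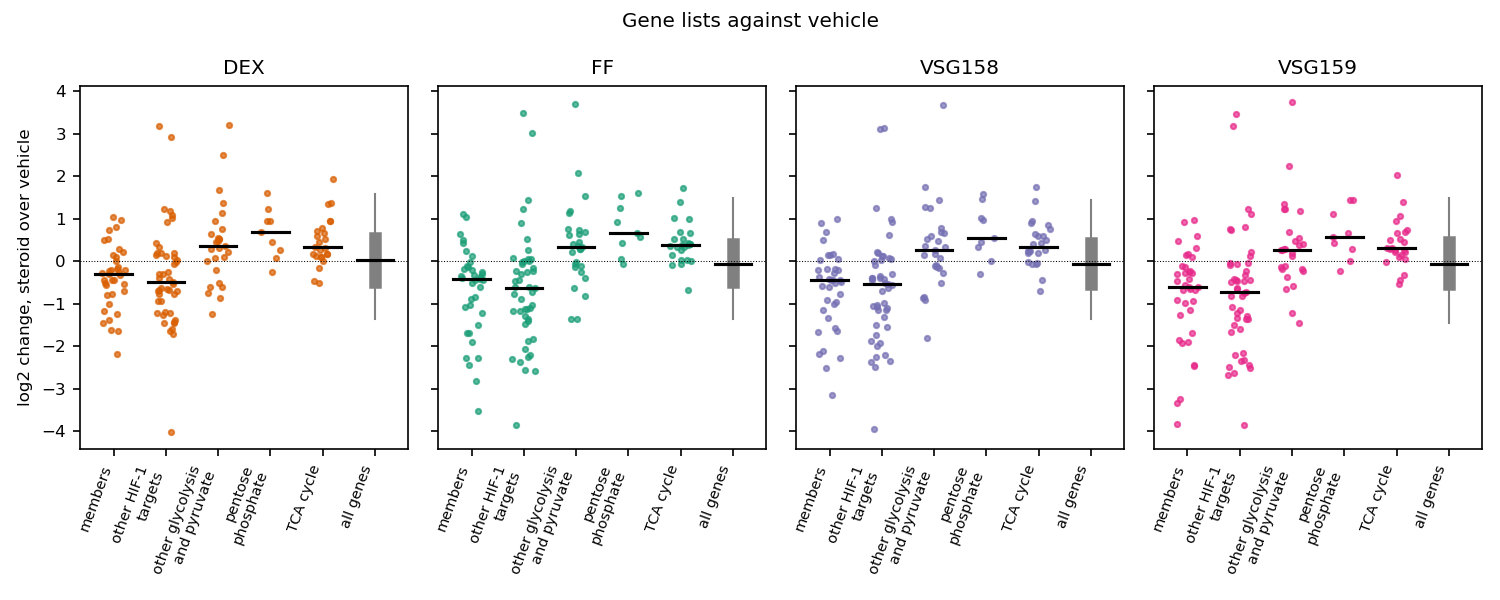
Log2 change over vehicle of each tested gene (points) and the median (bars) for the members, 47 further HIF-1 targets, 27 further glycolysis and glucose genes, 9 pentose phosphate genes and 24 TCA cycle genes in DEX, FF, VSG158 and VSG159 cells, with all 19499 genes as a box (quartiles) and line (5th to 95th percentile). The medians of the members and of the other HIF-1 targets lie below those of all genes and the medians of the other 3 lists above them.

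The median change of the members over vehicle was nearest to 0 under DEX. In 13 of the 15 genes that fell in every group, all but Aldoa and Pfkfb4, the DEX mean was the closest to vehicle, and the same was true of 57% of the 3085 genes of the array that fell in every group. FF and DEX, the 2 compounds of known structure, were given at the same dose and time and lay on the same slide. FF carries a furoate ester and a fluoromethyl thioester side chain where DEX has a hydroxyl group and a hydroxyacetyl side chain, beside a further fluorine. In FF cells 12 members were called lower than in DEX cells (2.28% of all genes) and none higher (1.86%). These were P4ha2 (-1.35, SE 0.20, adjusted p = 0.00574), Adm (-1.19, SE 0.18, adjusted p = 0.0073), Ndrg1 (-0.87, SE 0.11, adjusted p = 0.00227), Eno2 (-0.89), Ero1l (-0.81), Slc2a1 (-0.78), Vegfa (-0.64), Hk2 (-0.64), Hif1a (-0.60), Bnip3 (-0.53), Pfkp (-0.51) and Egln1 (-0.51). Of the 37 members, 20 lay lower in FF than in DEX cells without overlap of the arrays (21.3% of all genes), and 3 lay higher. The 12 called members, chosen on the same arrays, were among those 20. On slide 2 alone 9 members were lower, Slc2a1, Eno2, Vegfa, Adm, Bnip3, Ankrd37, Ero1l, P4ha2 and Ndrg1, a count not set beside a share of all genes. The count fell to 5 without DEX replicate 1, DEX replicate 3 or FF replicate 2 and to 6 without FF replicate 1 or 3, and with arrays scaled to their median it was 0, with 9 members at an unadjusted p under 0.05. Among all genes, 131 to 1403 were called between FF and DEX with each array left out in turn, against 807 with all arrays. With the median scaling 4 genes were.

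In VSG159 cells 14 members were called lower than in DEX cells (4.12% of all genes) and none higher (1.44%). Adm differed by -1.71 (SE 0.18, adjusted p = 0.000947), P4ha2 by -1.64 (SE 0.20, adjusted p = 0.00175), Eno2 by -1.05 (SE 0.17, adjusted p = 0.00699) and Ero1l by -1.01 (SE 0.13, adjusted p = 0.00244). Ndrg1, Slc2a1, Vegfa, Bnip3, Hif1a, Hk2, Egln1, Pfkp, Slc16a3 and Pdk1 were the others, with differences of -0.90 to -0.44. The VSG159 arrays lie on both slides and the DEX arrays on slide 2. With slide as a fixed block 5 members were called, namely Adm, P4ha2, Ero1l, Ndrg1 and Slc2a1, and Eno2, Vegfa, Bnip3, Hif1a and Egln1 were among those lost. The calls of Adm and P4ha2 held under every alternative but slide with position, and the count fell to 8 without DEX replicate 3 or VSG159 replicate 2 and to 9 without DEX replicate 1 or VSG159 replicate 1. In VSG158 cells 7 members were called lower than in DEX cells (0.939% of all genes) and none higher (1.06%). These were P4ha2 (-0.96, adjusted p = 0.0299), Adm (-0.89), Vegfa (-0.65), Ero1l (-0.65), Ndrg1 (-0.63), Pfkp (-0.45) and Egln1 (-0.45). VSG158 and DEX share no slide, and none of the 7 calls held with slide as a fixed or random block (with the fixed block Hk3, seen after its value was known, was called in their place, at -1.10 and an adjusted p of 0.0398). Without DEX replicate 1 or 3 no VSG158 call was left, and without VSG158 replicate 1 there was 1, without VSG158 replicate 3 or DEX replicate 2 there were 2, and without VSG158 replicate 2 there were 4. With each array left out in turn, 84 to 572 genes of the whole array were called between VSG158 and DEX, against 389 with all arrays. Between VSG159 and DEX there were 194 to 1578, against 1084. The number of calls among all genes thus also depended on the array left out.

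FF, VSG158 and VSG159 were not told apart by any single member, which does not show that they act alike. In all, 10 pairs of groups were compared, and p-values were adjusted within each pair over all genes. No gene of the array was called by limma in the 3 pairs of VSG158 with FF, VSG159 with FF and VSG159 with VSG158, in which 0% of all genes were called. At an unadjusted p under 0.05 there were 2, 3 and 8 members in these pairs, and 1228, 1177 and 1203 of the 19499 genes. Adm, the member with the smallest unadjusted p in these pairs, differed between VSG159 and VSG158 cells by -0.83 (95% interval -1.22 to -0.44, adjusted p = 0.803) and P4ha2 by -0.67 (interval -1.10 to -0.25, adjusted p = 0.803). The arrays of these groups did not overlap for Adm and P4ha2. For Vegfa the interval of VSG158 over FF was -0.28 to 0.26, and that of VSG159 over FF was -0.46 to 0.07.

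**Figure D5:**
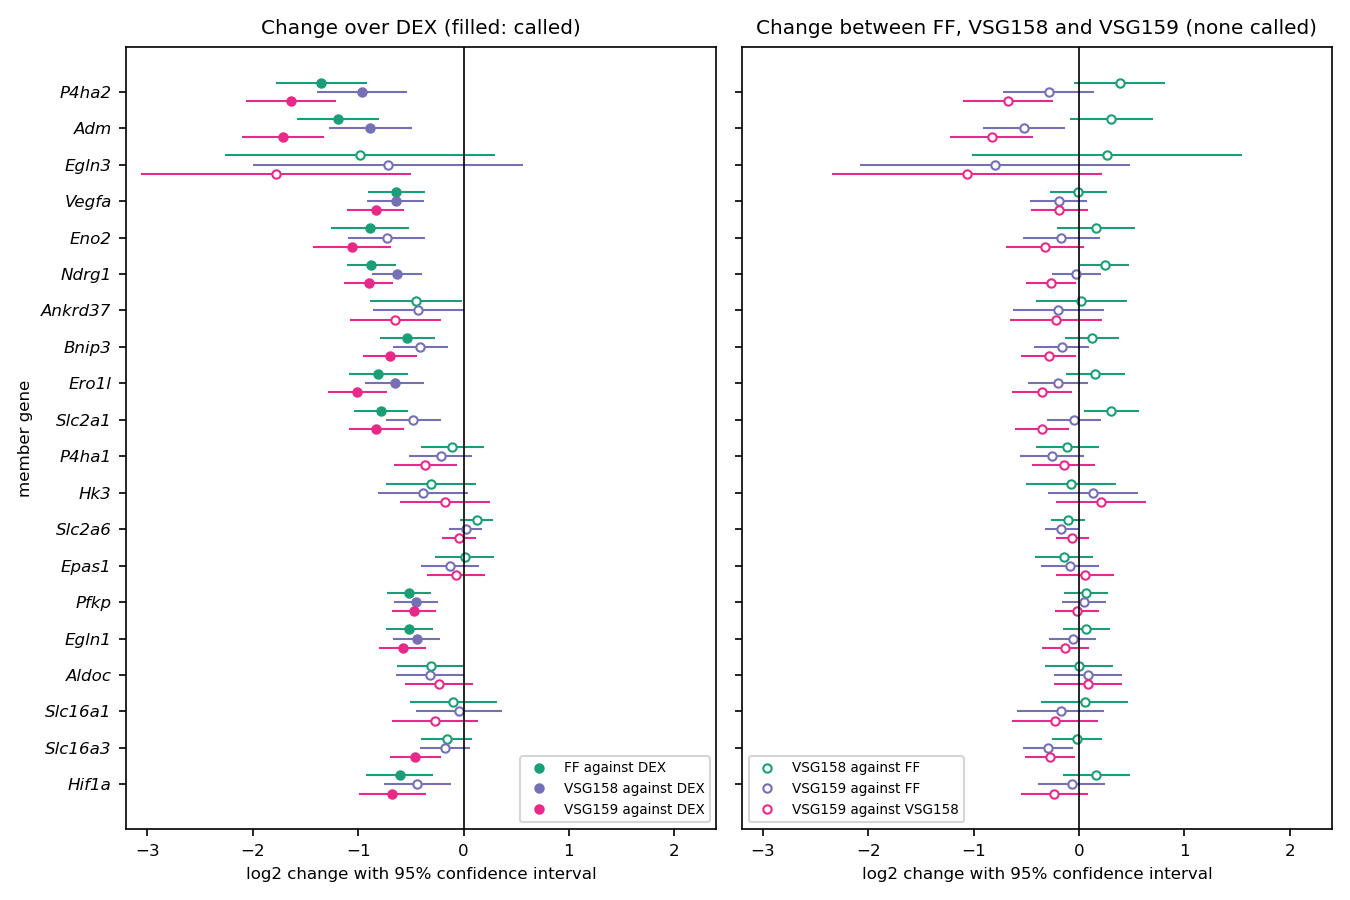
Log2 difference with its 95% confidence interval for the 20 members with the largest change over vehicle, for each steroid over DEX (left) and between FF, VSG158 and VSG159 (right). Filled points are called: on the left P4ha2, Adm, Vegfa, Ndrg1, Ero1l, Pfkp and Egln1 are called below 0 for all 3 steroids, and on the right no point is filled.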

How the data were processed

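Per the file headers, the authors scanned 1-colour Agilent mouse arrays with Feature Extraction 10.7.3.1, and the deposited processed signal is a spot intensity after background subtraction within the array. The deposited value table holds log2 values, and its normalization is not given in the sources used here beyond limma, per the submitters' processing notes. Its column medians are 5.80 to 5.83 and it correlates with the log2 processed signal at r of 0.988 to 0.994, so it was used as an alternative.

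The members, pathway lists and tests were chosen with earlier results of these data known. The log2 of the processed signal minus each array's 75th percentile (signals of 695 to 1223) was used, outlier spots were left out and spots of a probe averaged. Probes had to be well above background on at least 2 of 3 arrays of a group, and the tested probe with the highest mean stood for a gene. Limma 3.58.1 (R 4.3.3) was fitted with lmFit and eBayes to all 15 arrays with group as the only term, 10 contrasts and an F test. P-values were adjusted by the Benjamini-Hochberg method over 19499 genes and called under 0.05. The number of arrays limits the precision. Figures were drawn in Python 3.11.15. The script was tested on simulated data. Outlier spots numbered 98 to 960 per array, and correlations within a group were 0.966 to 0.993.

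Every measured member could be named. Values per array were given for the 14 members with the largest change and for Slc2a1, Hk2, Pfkfb3, Gapdh, Ldha, Hif1a and Vegfa, and up to 4 further genes per pathway list were named by size of change. Alternatives were other scalings, background correction, filters, probe choices, slide blocks, slide with position, the replicate number and leaving out arrays.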

Additional observations from a re-analysis of the deposited data

How the results depend on the processing

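Of 9768 recomputed member changes, 8775 kept their direction and side of the threshold, 454 were called in neither fit and changed sign, 441 lost the call, 97 gained one and 1 called change reversed: Pkm in VSG158 cells over vehicle was 0.084 (adjusted p = 0.68, limma) in the deposited value table. Against vehicle, counts moved by over 1.5 times only with median scaling and with slide and position together. Scaling each array to its median left 16 members in the F test, 3 higher and 10 lower with DEX, 2 higher with FF, and 2 higher and 14 lower with each of VSG158 and VSG159. It left 0 members lower in FF (9 at an unadjusted p under 0.05) and 0 in VSG158 cells (8) than in DEX cells, and 2 in VSG159 cells. This scaling moved the median of all genes to -0.12 for VSG158 over vehicle. With slide and position, 0 members were called with DEX over vehicle (9 unadjusted), 1 higher and 8 lower with FF, 2 higher and 15 lower with VSG158, and 2 higher and 14 lower with VSG159. In that fit, which stands outside the 9768, the sign of a called change turned for Pfkl with DEX over vehicle (0.01, adjusted p = 0.997) and for Ero1l (0.07) and Ndrg1 (0.01) with VSG158 over DEX (adjusted p = 0.999 for both). Changes without a call in the fit by group alone turned as well, among them Egln3 with DEX over vehicle (1.21, adjusted p = 0.917). So did Eno2 (0.24) and Slc2a1 (0.21) with VSG158 over DEX (adjusted p = 0.999 for both). Over DEX the count was then 0 for FF (12 unadjusted), 0 for VSG158 (0) and 0 for VSG159 (5). The other counts over DEX moved as follows. FF had 7 lower members with normexp, 7 in the deposited table and 5 with no filter. VSG158 had 4 with quantile normalization, 3 in the deposited table, 0 with no filter, 4 with the mean of probes, 1 with slide as a fixed block and 0 with slide as a random block. VSG159 had 9 with quantile normalization, 7 in the deposited table, 7 with no filter, 5 with slide fixed and 7 with slide random, and 9 without the 3 arrays with many outlier spots, an alternative chosen after seeing the data that leaves VSG159 with 1 array, assumed to vary like the other groups. The causes were not tested. Leaving out each array in turn gave 24 to 30 members in the F test. Lower members over DEX then numbered 5 to 12 for FF, 0 to 8 for VSG158 and 8 to 18 for VSG159. Of all genes, 131 to 1403, 84 to 572 and 194 to 1578 were called in these comparisons, in either direction. Against vehicle, lower members numbered 14 to 20 with DEX, 19 to 23 with FF, 20 to 23 with VSG158 and 20 to 25 with VSG159, and higher members 5 to 7 with DEX and 3 to 5 with the others. Genes called in either direction then numbered 7530 to 9887 with DEX, 7119 to 8848 with FF, 7406 to 9261 with VSG158 and 7291 to 10150 with VSG159. With the replicate number as a block, lower members over DEX were 7 for FF, 2 for VSG158 and 10 for VSG159. Whether the replicate numbers pair the samples was not settled. The deviations of 7 of 30 same-numbered pairs and 20 of 60 others correlated above 0.1, and such pooled counts cannot exclude a pairing. Same-numbered arrays of DEX and vehicle correlated at 0.10 to 0.26, and those of VSG158 and VSG159 at -0.56 to -0.27.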
